A study of Mus musculus with 2 samples.

Results

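Immediate early response genes are switched on within minutes of a stimulus without new protein synthesis, and 10 of them, read through 12 of the 45101 probe sets of the array, were compared between pancreas RNA pools of offspring of methionine-deficient and control mothers. They were chosen by gene symbol: every probe set whose platform symbol field held Fos, Fosb, Jun, Junb, Egr1, Egr2, Ier2, Ier3, Atf3 or Nr4a1 was taken, and the whole array held 18193 named genes. The methionine-deficient group was made up of male C57BL/6J offspring, an inbred laboratory strain, whose mothers were given a methionine-deficient diet while pregnant. The control group was made up of male C57BL/6J offspring whose mothers were given control diet while pregnant. All offspring were on control diet after weaning at 3 weeks and were 10 weeks old, and per the labels neither group was itself treated after birth. Within each group the pancreas RNA was combined into 1 pool and hybridised to 1 array (n = 1 array per group), so the spread between mice was not measured, and no value below has a p-value.

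Most of these genes encode transcription factors. Fos and Jun family proteins pair through leucine zippers into the AP-1 factor, the Egr proteins bind GC-rich sites through zinc fingers, and Nr4a1 is an orphan nuclear receptor. Their genes are driven by factors already present in the cell, chiefly serum response factor with its ternary complex partners, which are phosphorylated by MAP kinases, and CREB, which binds the cyclic AMP response element. Their transcripts are short-lived, and in pancreas they are known to be induced by secretagogues, by glucose in islets, by inflammation and by the handling of tissue. How long after death the tissue was taken is not given in the sources used.

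The regions just upstream of 6 of the genes are shown. Fos, Junb, Atf3 and Nr4a1 hold a half-site of the cyclic AMP response element that several members share. Jun is shown for a longer variant without that half-site, and Ier3 as a gene with neither. Each is the 150 bases before a transcript start annotated in RefSeq (GRCm38.p6), which for Nr4a1 lies inside the annotated gene and for the others is the start of the gene. Sequences run 5′ to 3′ on the strand of the gene, and capitals mark TGACG, the half-site of the cyclic AMP response element, on either strand, or TGACNTCA, a full-length variant of it. The Fos stretch lies at chr12:85473740-85473889 (plus strand), that of Jun at chr4:95052223-95052372 (minus strand) and that of Junb at chr8:84978749-84978898 (minus strand). The Atf3 stretch lies at chr1:191183334-191183483 (minus strand), that of Nr4a1 at chr15:101266696-101266845 (plus strand) and that of Ier3 at chr17:35821563-35821712 (plus strand).
Fos: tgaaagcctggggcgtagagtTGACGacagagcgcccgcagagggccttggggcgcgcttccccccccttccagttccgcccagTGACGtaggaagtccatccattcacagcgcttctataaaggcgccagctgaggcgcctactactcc
Jun: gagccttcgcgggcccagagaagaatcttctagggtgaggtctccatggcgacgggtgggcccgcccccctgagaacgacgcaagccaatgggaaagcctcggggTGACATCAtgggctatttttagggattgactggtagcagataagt
Junb: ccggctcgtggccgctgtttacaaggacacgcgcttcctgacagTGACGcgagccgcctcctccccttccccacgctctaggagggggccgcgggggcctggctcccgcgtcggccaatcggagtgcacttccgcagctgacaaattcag
Atf3: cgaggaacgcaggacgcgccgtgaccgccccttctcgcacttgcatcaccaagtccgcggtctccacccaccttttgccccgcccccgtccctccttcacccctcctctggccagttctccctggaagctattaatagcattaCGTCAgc
Nr4a1: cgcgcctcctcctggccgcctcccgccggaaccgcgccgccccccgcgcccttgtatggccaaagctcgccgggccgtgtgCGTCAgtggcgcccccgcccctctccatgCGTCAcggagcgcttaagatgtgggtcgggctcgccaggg
Ier3: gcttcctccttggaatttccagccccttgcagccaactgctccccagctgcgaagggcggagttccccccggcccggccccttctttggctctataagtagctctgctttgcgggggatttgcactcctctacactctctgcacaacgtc

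Windows of the 250 bases before a transcript start were searched on both strands, and 8 of the 10 genes had at least 1 such window. TGACG was present in 6 of these 8 genes (Fos, Fosb, Junb, Atf3, Egr2 and Nr4a1), beside 19.8% of all 27025 genes with a window. Egr2 had 5 windows, which gives it more places for a match. TGACNTCA, which contains TGACG where N is G, was present in Jun, beside 8.55% of all genes. In Atf3 the match begins 7 bases before the start, in Jun 45 bases before it and in Junb 106 bases before it. The EGR motif GCGNGGGCG was present in Fosb and Nr4a1, beside 5.33% of all genes, and overlapped no other motif there. The CArG box, the site of serum response factor, was present in these windows in Egr2 alone among the 8, beside 1.62% of all genes. Only its strict form (CC, 6 bases of A or T, GG) was searched, and nothing beyond 250 bases upstream. The other genes are therefore not shown to lack it. The AP-1 motif TGANTCA was found in 0 of the 8, beside 7.82% of all genes, and Ier3 held no TGACG or TGACNTCA in its window. Egr1 and Ier2 were not searched. A match describes the letters and is not a measured binding site.

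The group did not move as a block between the pools. Of the 10 genes, each taken through its brightest probe set, 5 were higher and 5 lower in the methionine-deficient pool, with a median log2 difference of -0.01 beside 0.01 over all 18193 genes. Junb and Atf3 were at least 2-fold higher and Egr1 was at least 2-fold lower. Over all genes 12.8% lay at or above 2-fold on the higher side and 11.0% on the lower side, so 2 and 1 of 10 are close to the background. The other 7 genes differed by less than 2-fold. At 1.5-fold or more in either direction there were 4 of the 10, beside 37.8% of all genes. In pooled tissue, fewer cells of a type and less RNA per cell cannot be told apart. The plot of intensities by probe set shows these values side by side.

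**Figure D1:**
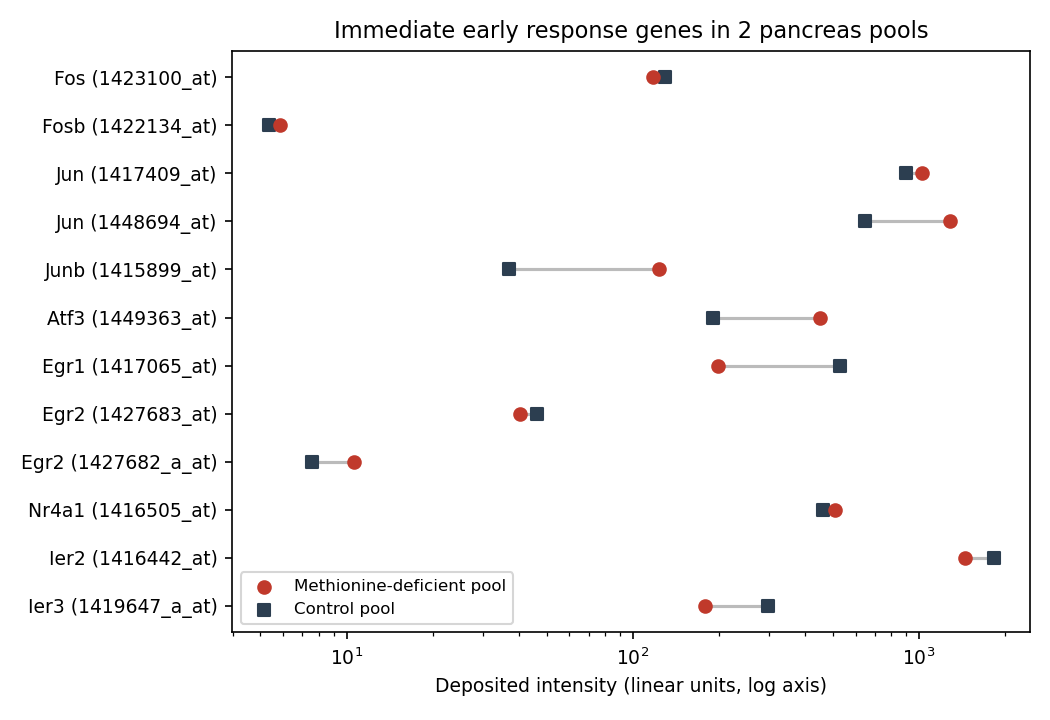
Deposited intensity (linear units, log axis) of each of the 12 probe sets, ordered by the role of the gene, in the methionine-deficient pool (circles) and the control pool (squares), 1 array each. The pools are farthest apart for Junb (123 and 36.9), Egr1 (198 and 529) and Atf3 (451 and 191), while Fos, Fosb and Nr4a1 nearly coincide.

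How far a single probe set can differ by probe noise depends on its level. The probe sets of the array were split by mean level into 5 bins of equal size, and the robust SD between probe sets of 1 gene, called the probe-set spread below, was 1.86, 2.03, 0.97, 0.54 and 0.23 on the log2 scale from the dimmest to the brightest bin. It covers noise within these 2 arrays and not the spread between mice. Of the 12 probe sets, 2, 2, 1, 4 and 3 fell in these bins. In 5 of the 12 (41.7%) the log2 difference was larger than the spread, beside 33.7% of all probe sets. Those were the probe sets of Egr1, Atf3, Ier3 and Ier2 and the dimmer one of Jun. No detection calls were used, so it is not known which of the dim probe sets lie above background.

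Fos, the founding partner of AP-1, had an intensity of 118 in the methionine-deficient pool, against 130 in the control pool. The log2 difference was -0.14 with a probe-set spread of 0.97, at a mean level below the median of all probe sets. Fosb, its close relative, had 5.85 in the methionine-deficient pool, against 5.33 in the control pool, in the dimmest bin of the array. Its log2 difference of 0.11 had a spread of 1.86 and turned negative under loess scaling (-0.04) and under scaling to the poly-A spike-in controls (-0.07). Both Fos family members therefore differed by less than the spread of a probe set at their level.

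Jun, which pairs with Fos proteins or with itself, was the only one of the AP-1 members here with a pair of probe sets, and they gave different sizes. Its brighter probe set had 1020 in the methionine-deficient pool, against 898 in the control pool, a log2 difference of 0.18. Its dimmer probe set had 1285 in the methionine-deficient pool, against 645 in the control pool, a log2 difference of 0.99 or 1.99-fold. Both were higher, but they disagreed by 0.81 on the log2 scale while their spread was 0.23. In their level bin 0.533% of probe sets were at least 2-fold higher, and the central 95% ran from -0.61 to 0.62. Both lay in the dimmer part of that bin, and in the next dimmer bin the share was 4.31%. The Jun value thus depends on the probe set, being 0.18 from the brightest and 0.59 as the mean of both.

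Junb, a Jun family member that is a weaker activator than Jun and can oppose it, had 123 in the methionine-deficient pool, against 36.9 in the control pool. It was 3.28-fold higher, the largest fold among the 10 genes, with a log2 difference of 1.71. Its probe-set spread of 2.03 was larger still, and 33.5% of the probe sets in its level bin were at least 2-fold higher. The control intensity lay below that array's median of 165, so the size of the fold rests on a dim value.

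Atf3, a stress-induced factor of the ATF family that pairs with Jun proteins and often represses, had 451 in the methionine-deficient pool, against 191 in the control pool. It was 2.36-fold higher, with a log2 difference of 1.24 and a probe-set spread of 0.54. Of the probe sets in its level bin 4.31% were at least 2-fold higher, and the central 95% ended at 1.18, just below it. Atf3 lay in the dimmer part of that bin, and in the next dimmer bin the share was 16.4%. The noise at its own level may thus be larger than these bin values. Under the 8 alternative settings that gave a value Atf3 lay between 1.06 and 1.24. Filters, the choice of probe sets and the mean over probe sets cannot change the value of a single probe set. The other settings moved it little, so the alternatives are not a check of its direction. It rests on a single probe set.

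Egr1, a zinc finger factor induced by growth factors and by glucose in beta cells, went the other way. It had an intensity of 198 in the methionine-deficient pool, against 529 in the control pool. It was 2.66-fold lower, with a log2 difference of -1.41 and a probe-set spread of 0.54. Of the probe sets in its level bin 3.79% were at least 2-fold lower, and the central 95% began at -1.13. Egr1 also lay in the dimmer part of that bin, and in the next dimmer bin the share was 14.2%. Under the 8 alternatives that gave a value Egr1 lay between -1.59 and -1.35. It too rests on 1 probe set, so the same limit of the alternatives holds. Egr2, known for its part in Schwann cells and lymphocytes, had 40.3 in the methionine-deficient pool, against 46.3 in the control pool, through its brighter probe set. Its dimmer probe set had 10.6 in the methionine-deficient pool, against 7.58 in the control pool. The log2 differences of -0.19 and 0.44 have opposite signs and lie within spreads of 2.03 and 1.86, so Egr2 had no settled direction.

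**Figure D2:**
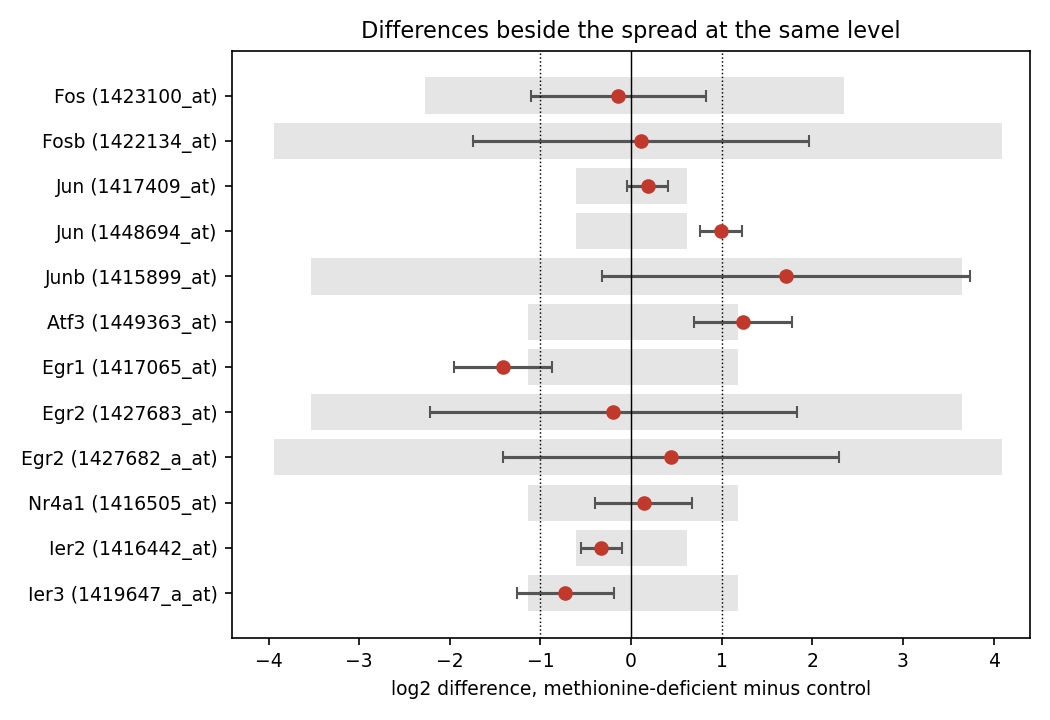
The log2 difference (methionine-deficient minus control) of each probe set is a point, its error bar is the probe-set spread of its level bin in either direction, and the grey bar is the central 95% of all probe sets of that bin. Dotted lines mark 2-fold. Egr1 (-1.41), Atf3 (1.24) and 1 Jun probe set (0.99) lie outside their grey bars, and Junb (1.71) lies inside a wide one.

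Nr4a1, the nuclear receptor also called Nur77, had 510 in the methionine-deficient pool, against 463 in the control pool. Its log2 difference of 0.14 was within its spread of 0.54 and became -0.04 when the arrays were scaled to the poly-A spike-in controls. Ier2, a nuclear protein of the early response, was in the brightest bin, with 1451 in the methionine-deficient pool, against 1820 in the control pool. The log2 difference of -0.33 was larger than its spread of 0.23 but inside the central 95% of its bin. Ier3, which modulates apoptosis and ERK and NF-kappaB signalling, had 179 in the methionine-deficient pool, against 296 in the control pool. It was 1.65-fold lower, with a log2 difference of -0.72 beside a spread of 0.54, and likewise lay inside the central 95% of its bin. Ier2 and Ier3 were thus both lower, by amounts that many probe sets at those levels show.

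**Figure D3:**
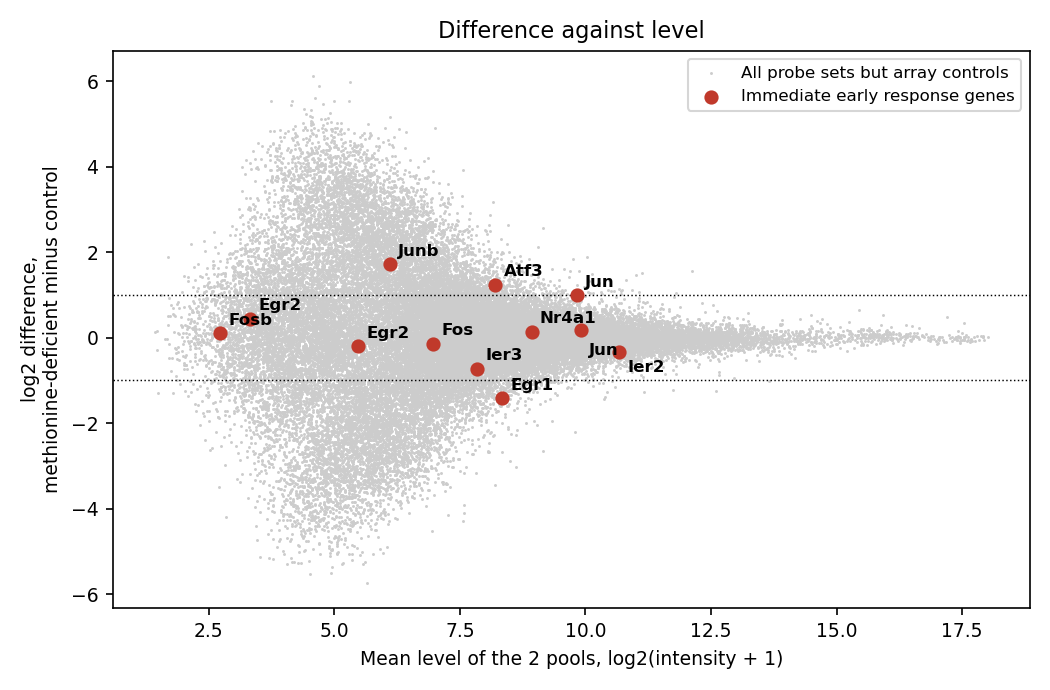
Log2 difference (methionine-deficient minus control) against mean level, log2(intensity + 1), for every probe set apart from array controls (grey) and the 12 probe sets of the immediate early response genes (named). Dotted lines mark 2-fold. The grey cloud widens toward low levels, where Junb (1.71) lies within it, while Atf3 (1.24), Egr1 (-1.41) and the upper Jun point (0.99) lie near its edge.

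Relatives of the 10 genes within the same families were named without regard to the rule for other genes, after their values had been seen. Klf6 and Btg2, from outside those families, were named in the same way. Among AP-1 relatives, Jund had 6120 in the methionine-deficient pool, against 5594 in the control pool (log2 difference 0.13, spread 0.23). Fosl2 was higher in both of its probe sets, at 0.12 and 0.44. Fosl1 had 4.04 and -1.32 in its pair of probe sets, both in the dimmest bin, and so had no settled direction. Of the EGR relatives, Egr4 had 296 in the methionine-deficient pool, against 159 in the control pool (log2 difference 0.90, spread 0.97), and Egr3 had 0.68 and -1.48 in its 2 probe sets. Nr4a2, a paralogue of Nr4a1, was higher in 5 of 6 probe sets, with differences from -0.17 to 0.94. Its brightest probe set had 1517 in the methionine-deficient pool, against 1085 in the control pool, a log2 difference of 0.48 beside a spread of 0.23. Nr4a3, the other paralogue, had 0.28, -0.11 and -0.58, all within the spread at their levels. Of the IER relatives, Ier5 had -0.39, -0.90 and 0.35, and Ier5l had -0.71 and -0.43. Klf6, a zinc finger factor of the early response, was higher in 4 of 5 probe sets, from -0.30 to 0.86. Btg2, an antiproliferative early gene, was lower in both, at -0.24 and -0.33.

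The wider list of other early response genes includes these relatives, and 40 of its 41 genes had a probe set of their own. They were higher in 27 and lower in 13 cases, beside 50.6% of all genes higher, with a median log2 difference of 0.17. Scaling to the poly-A spike-in controls took this median to -0.01 and that of all genes to -0.17. At 2-fold or more, 4 were higher and 0 lower through their brightest probe set, beside the same 12.8% and 11.0% of all genes. Of the 40, 37 lay at or above the median level, and such sizes were rarer toward the brightest bins. Plk3, a stress-responsive kinase, had 312 in the methionine-deficient pool, against 73.4 in the control pool (log2 difference 2.07, spread 0.97). Maff, a small Maf factor, had 255 in the methionine-deficient pool, against 97.6 in the control pool (log2 difference 1.38, spread 0.97). Klf2, a factor of endothelial cells induced by blood flow, had 562 in the methionine-deficient pool, against 242 in the control pool (log2 difference 1.21, spread 0.54). The fourth was Fosl1. The endothelial markers Pecam1, Cdh5 and Kdr were also higher in 3 of 3 cases, with a summed intensity of 1260 in the methionine-deficient pool, against 852 in the control pool. Kdr had the largest log2 difference (2.07) but lay below the median level, while Cdh5 had 0.48 and Pecam1 0.25. The part of these markers in the Klf2 value was not tested.

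Genes that end the early response, such as phosphatases of MAP kinases and factors of RNA decay, were all measured. Of the 28, 15 had higher and 13 had lower signal, beside 50.6% of all genes higher, and the median was 0.07. On poly-A scaling it was -0.11, beside -0.17 over all genes. Through the brightest probe set of each gene, 0 passed 2-fold in either direction, beside 12.8% of all genes on the higher side and 11.0% on the lower side. Some dimmer probe sets of these genes did pass 2-fold, in both directions. These shares include dim genes, whereas 24 of the 28 lay at or above the median level. In the brightest bin 0.833% and in the next 8.09% of probe sets differed at least 2-fold. A count of 0 is thus not unusual at such levels. Errfi1, an inhibitor of the EGF receptor, was higher in both of its probe sets, at 0.67 and 1.11. Dusp2, a nuclear MAP kinase phosphatase, had 839 in the methionine-deficient pool, against 575 in the control pool (log2 difference 0.55, spread 0.23). Dusp6, the cytoplasmic ERK phosphatase, had 305 in the methionine-deficient pool, against 473 in the control pool (log2 difference -0.63, spread 0.54). Dusp10 had -0.82 in its brighter probe set and 0.51 in the other. Dusp1, induced together with Fos and named after its value was seen, had 0.34 with a spread of 0.23, and Zfp36, which speeds the decay of such transcripts, also named afterwards, had -0.16 with a spread of 0.54.

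Among kinases and factors upstream of the early response, 21 of 28 had a probe set of their own. Of these, 14 had higher and 7 lower signal, beside 50.6% of all genes higher. The median was 0.05 and became -0.12 on poly-A scaling, which took the median of all genes to -0.17. Mrtfb, a coactivator of serum response factor, had 2872 in the methionine-deficient pool, against 1334 in the control pool (log2 difference 1.11, spread 0.23). Its other probe sets gave -0.23 and 1.97. Crem, a cyclic AMP responsive factor, had -0.75 in its brightest of 4 probe sets, which ranged up to 3.46. Mapk9, a JNK kinase, had 0.66 in its brightest probe set and -0.15 and -0.06 in the others, and Mef2d had 0.49 in its brightest with a range from -0.15. Srf itself had 0.35 and -0.79 in its pair of probe sets and was named after its values were seen. Of the heat shock genes, which respond to stress and tissue handling by another route, 14 of 16 were measured, 7 higher and 7 lower, with a median of -0.01. Hspa1b, an inducible chaperone, had -0.80 in its brightest probe set, while its other probe sets gave 0.69 and 0.26, and it is nearly identical to Hspa1a, so the value is uncertain. Dnajb1 likewise had 0.48 and -0.51. Hspe1 was lower in both probe sets, at -0.51 and -0.12, and its mitochondrial partner Hspd1 had -0.32.

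**Figure D4:**
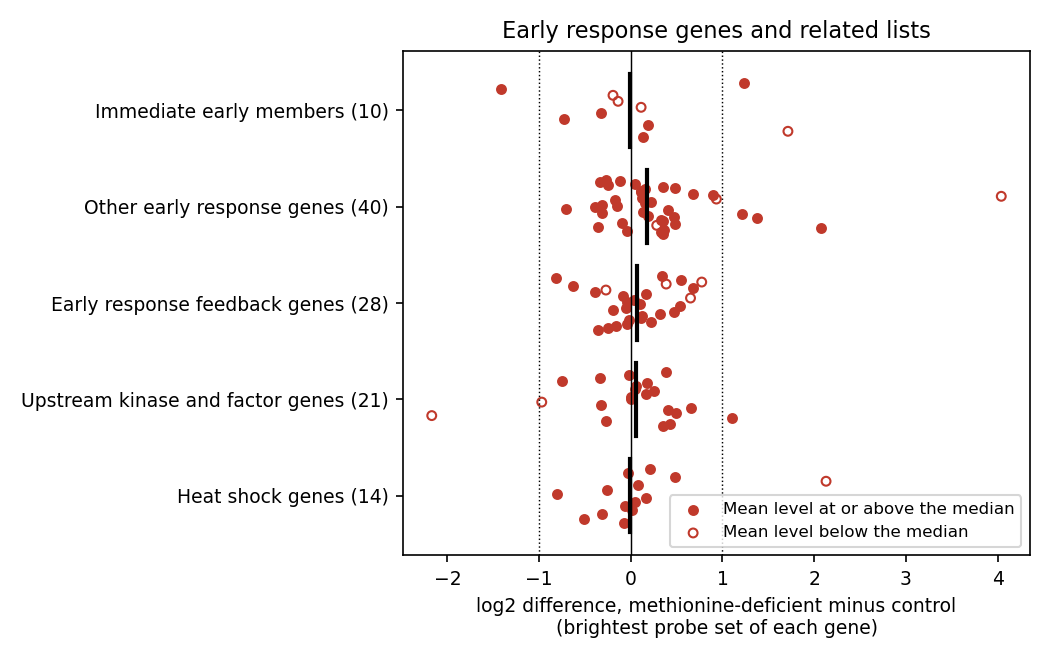
Log2 difference (methionine-deficient minus control) of the brightest probe set of each gene in 5 lists, with the number measured in parentheses. Filled points have a mean level at or above the median of all probe sets, open points lie below it, black bars are medians and dotted lines mark 2-fold. The medians lie between -0.01 and 0.17, and the immediate early response genes spread from -1.41 to 1.71.

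Both arrays had the marks of pancreas. The 6 acinar markers measured summed to 995039 in the methionine-deficient pool, against 997493 in the control pool, and the 4 islet markers to 178750 against 170835. Of the 5 B cell and plasma cell markers 4 were lower, and the 5 summed to 5415 in the methionine-deficient pool, against 10407 in the control pool. Most of that difference came from Ighm (2243 in the methionine-deficient pool, 5210 in the control pool) and Jchain (2281 and 4087). The others had log2 differences of -0.64 (Ms4a1), -0.32 (Cd79a) and 0.20 (Cd79b). The 7 myeloid markers summed to 6164 in the methionine-deficient pool, against 6697 in the control pool. Duct, stroma, T cell, adipocyte, liver and skeletal muscle markers had log2 ratios of summed intensity between -0.24 and 0.29. Such sums follow the brightest marker, and single markers of these lists had log2 differences from -1.73 (Cd4) to 3.00 (Cd3g). The liver sum was mostly Ttr, with 11572 in the methionine-deficient pool, against 13714 in the control pool, while Alb had 193 against 279. No marker of any list was at 0. The part of the B cell and plasma cell difference in the values of the immediate early response genes, higher or lower, was not tested. For Actb, the 3′ over the 5′ control signal, which rises as RNA degrades, was 1.76 in the methionine-deficient pool, against 1.46 in the control pool. For Gapdh it was 1.11 in the methionine-deficient pool, against 0.973 in the control pool, and its part in these values was not tested.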

How the data were processed

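Pancreas RNA was extracted with Trizol and labelled with biotin by a 3′ IVT kit for Affymetrix arrays, per the labels' protocols. The authors deposited probe set intensities on a linear scale. How they were summarised, corrected and scaled is not stated in the labels. The mean after trimming 2% at each end was 500.003 on both arrays, so they appear scaled to a common trimmed mean. Precision is limited by the number of arrays.

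Genes were named by the 2016 platform annotation, updated by gene identifier. Probe sets with several symbols (932) or none (9160) and 64 array controls stayed out of gene counts. Intensities were taken to log2(value + 1), which slightly understates differences of dim genes. A gene was its brightest probe set by mean level, with no level filter, and a size of at least 2-fold was counted without a test. Of each related list, the 4 largest differences at or above the median level, plus genes whose probe sets all pass 2-fold one way, were named. Others are said to be named afterwards. Members and lists were chosen with earlier results of these data known. The calculation of the spread was run on simulated data with a known spread. That checks the arithmetic only, not whether probe sets of 1 gene differ by noise alone. Alternatives were median, quantile, loess and poly-A spike-in scaling, a pseudocount of 16, level filters, the mean over probe sets, probe sets without _s_at and _x_at, other fold sizes and list means. Promoter windows came from RefSeq. Python 3.11.15, numpy 2.4.6, pandas 2.3.3 and statsmodels 0.14.6 were used.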

Additional observations from a re-analysis of the deposited data

How the results depend on the processing

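With each alternative that gave a value, Junb lay between 1.40 and 1.71, Atf3 between 1.06 and 1.24 and Egr1 between -1.59 and -1.35 on the log2 scale. Each has 1 probe set, so only the scalings and the pseudocount could change these values. Filters only change which genes are counted: at the median level 1 member and 1 probe set were at least 2-fold higher, since Junb is below it, and at the 75th percentile 0 were higher and 0 lower. At 3-fold, 1 member and 1 probe set were higher and 0 lower, and at 1.5-fold 2 members and 2 probe sets were lower. The median of the members, -0.01, became 0.14 with the 75th percentile filter, 0.12 with the mean over probe sets and 0.059 as a mean. Scaling to the 27 poly-A spike-in probe sets, which were higher in 24 cases with a median of 0.18, moved the median of all genes to -0.17. It moved the other early response genes to -0.0054, the feedback genes to -0.11, the upstream genes to -0.12 and the heat shock genes to -0.18. As list means, the other early response genes had 0.33, the upstream genes -0.016 and the heat shock genes 0.077. The upstream median was 0.16 with the median filter, and the heat shock median was 0.030 without _s_at and _x_at probe sets and 0.016 with the mean over probe sets. Beyond these constructions the cause was not tested. Counts at 0 come from fold sizes without a test. No paired analysis was possible because each group is 1 pool on 1 array, and for the same reason no replicate could be left out. Low signal limits Fosb, Egr2 and Junb, and Fos also lay below the median level.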
